A study of Homo sapiens with 5 samples.

Results

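Choroid plexus cells of day 42 brain organoids were described from the single-cell RNA library D0. The choroid plexus is the sheet of epithelium that grows from the dorsal midline of the brain ventricles, next to the cortical hem, under BMP and WNT signals. Its cells make the cerebrospinal fluid, form a barrier of tight junctions between blood and fluid, carry ions, folate, vitamins and hormones across it, and bear motile cilia. They secrete transthyretin, the product of TTR, which carries thyroid hormone and retinol-binding protein and is the classical mark of this epithelium.

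Cells were chosen by their TTR share: more than 1% of a cell's unique molecular identifiers (UMIs, tags by which each captured RNA molecule is counted once) came from TTR. Among 4900 D0 cells with over 500 UMIs, over 500 genes and under 15% of UMIs from mitochondrial genes, 309 met this rule. This was 6.31% of D0 cells (exact Clopper-Pearson 95% interval 5.64 to 7.02), and the human cells of all 5 libraries that passed the same filters numbered 34405. The other 4591 D0 cells served as the comparison.

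Organoids were made from AAVS-ChR2-EYFP H9, 1 derivative of the human embryonic stem cell line H9 that carries a light-gated channel and a fluorescent protein, and the labels give its genotype as WT. D0 was a pool of organoids kept in vitro to day 42 and dissociated with TrypLE, and HIP_2MPT, HIP_4MPT, PFC_2MPT and PFC_4MPT were grafts from the hippocampus (HIP) or prefrontal cortex (PFC) of immunodeficient mice, given as SCID-Beige or SCID in the study, 2 or 4 months after transplantation, dissociated with Trypsin-EDTA. Each condition had 1 library. D0 held 57135277 UMIs in 5675 barcodes, and its 4900 cells had a median of 9841.5 UMIs. With 1 library and no replicate, no difference was tested, all intervals cover counting error only, and the values describe these organoids. The TTR share chose the cells from the same counts, so every gene difference is a description too.

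The 309 cells had a median of 13969 UMIs (range 727 to 80211) and 3466 genes, against 9740 UMIs in the other D0 cells. Their TTR share ran from 1.01% to 29.1%, with a median of 5.12% and quartiles of 2.74% and 8.53%. TTR thus made up 6.74% of their summed UMIs. In the other cells it made up 0.0316%, but 89.4% of them held at least 1 TTR UMI, with a median of 2. Cells with UMIs of at least 3 of the neuronal genes STMN2, DCX, NEUROD6 and GAP43, which should lack TTR, held a TTR UMI in 90.2% of 2183 cells (median 10924 UMIs), so a single TTR UMI did not mark a choroid plexus cell in this library. HTR2C stood at 9.21 UMIs per 1000 TTR UMIs in the chosen cells, 10.4 in the other cells and 9.002 in the neurons, and FOLR1 at 1.33, 2.21 and 1.70. For OTX2 the ratio was 2.21 in the chosen cells, 27.4 in the others and 15.8 in the neurons. TTR, the denominator, chose the cells, and the part of free RNA in these values was not tested.

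**Figure D1:**
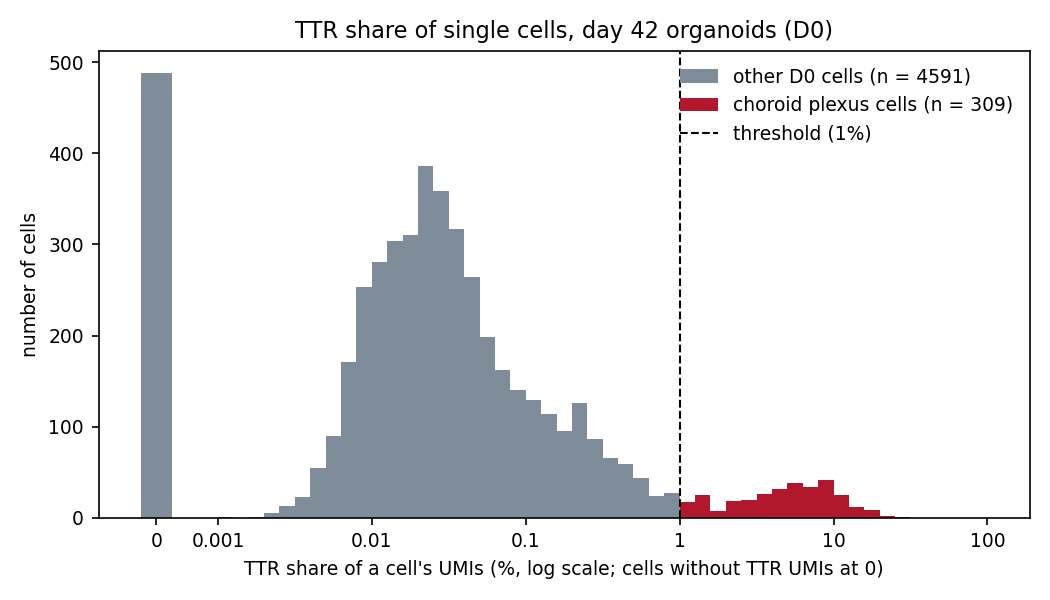
TTR share of the UMIs of each D0 cell on a log axis, with the number of cells per bin on the vertical axis and the 488 cells without a TTR UMI in a bar at 0. Most other cells (grey) lie between 0.01% and 0.1%, and the 309 chosen cells (red) form a low mound above the dashed threshold of 1%, with 113 cells between 5% and 10%.

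The threshold cut through a thin range rather than an empty one. Between 0.5% and 1% lay 97 cells, and between 1% and 2% lay 50. The 25 cells just inside had TTR shares of 1.01% to 1.33% and a median of 4143 UMIs, with 15 FOLR1 UMIs in 6 cells and 28 OTX2 UMIs in 8 cells. The 25 cells just outside had shares of 0.806% to 1% and a median of 1818 UMIs, with 1 FOLR1 UMI and 10 OTX2 UMIs in 6 cells. Over their summed UMIs, HTR2C was at 117 CPM inside and 156 CPM outside, CPM being a gene's UMIs scaled to a common total for the summed cells. Cells on both sides thus carried RNA of choroid plexus genes, and those outside were shallower.

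The label was checked against the other choroid plexus markers. FOLR1, the folate receptor by which the epithelium carries folate into the fluid, was at 89.8 CPM (Poisson 95% interval 81.6 to 98.7) in the 309 cells and 0.699 CPM in the other cells. AQP1, the water channel of the apical membrane, was at 48.4 CPM (42.4 to 55.1) and 0.873 CPM. OTX2, a transcription factor that choroid plexus needs to form and persist, was at 149 CPM (138 to 160) and 8.65 CPM. CLIC6, a chloride intracellular channel protein, had 76 UMIs in the chosen cells and 7 in the others, under the minimum of 100 UMIs set for comparisons. On GRCh38 these genes lie at chr11:72189558-72196323 (FOLR1), chr7:30911853-30925517 (AQP1), chr14:56799905-56816693 (OTX2, minus strand) and chr21:34668994-34718227 (CLIC6). FOLR1 (434 UMIs in the chosen cells and 36 in the others) and AQP1 (234 and 45) reached that minimum only through the chosen cells, so their levels describe these cells and do not bear on the label. OTX2 had 718 and 446 UMIs.

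Cell by cell the markers were sparse. Of FOLR1, CLIC6, AQP1 and OTX2, 90 chosen cells had no UMI of any, 85 had 1 of the genes, 81 had 2, 46 had 3 and 7 had all 4. Of the other cells, 4273 had none, 295 had 1, 22 had 2 and 1 had 4. Of the 157 D0 cells with at least 2 of them, 134 (85.4%) were chosen cells. FOLR1 and AQP1 reached the minimum only through the chosen cells, which were also deeper. This count thus describes these cells and does not bear on the label. After each cell was thinned to 1000 UMIs, which left 294 chosen cells, 4324 others and 2151 neurons, OTX2 was seen in 13.9% of chosen cells, 1.04% of others and 0.372% of neurons. FOLR1 was seen in 6.12%, 0.116% and 0.0465%. Without thinning, the shares for FOLR1 were 42.4% of chosen cells and 0.697% of other cells.

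Across all genes, 12977 had at least 100 UMIs over both groups, and their median log2 ratio (CPM plus 1, chosen over other cells) was -0.21. At least 2-fold higher in the chosen cells were 1219 genes (9.39%), 391 of them at least 4-fold. At least 2-fold lower were 1798 genes (13.9%), 407 of them at least 4-fold. The minimum was set on the sum of both groups, so 312 genes reached it only with the UMIs of the chosen cells, and 1025 of the 1219 higher genes reached it without them. The counts by list below include such genes and are descriptions: 6 each in the cilium and nutrient transport lists, 4 in the hem list, 3 each in the ion transport and retinal pigment epithelium lists and 2 each in the marker, junction, BMP and mesenchyme lists and 1 each in the choroid transcription factor, WNT and metallothionein lists, all of them higher. TTR takes a large part of the chosen cells' counts, and with its UMIs left out of the totals the median log2 ratio moved to -0.12, with 1361 genes higher and 1595 lower. Higher genes made up 40.4% of calls from summed UMIs and 33.0% with each cell weighted equally. In the 294 chosen and 4324 other cells that could be thinned to 1000 UMIs they made up 21.1%, among 5992 genes tested instead of 12977.

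**Figure D2:**
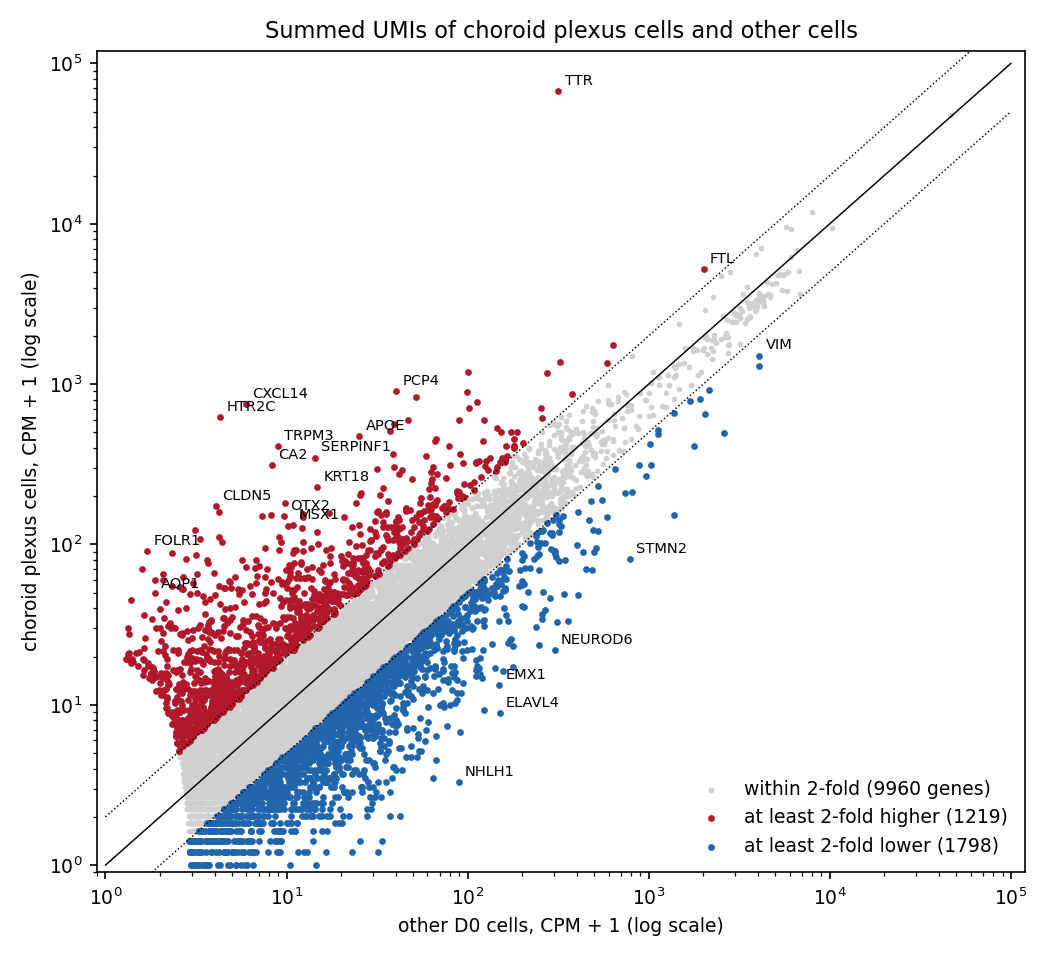
Each point is a gene with at least 100 UMIs, placed by its level in the other D0 cells (horizontal) and in the 309 choroid plexus cells (vertical), both as CPM + 1 on log axes, in red if at least 2-fold higher and in blue if at least 2-fold lower in choroid plexus cells. TTR, which chose the cells, stands apart at the top, HTR2C, CXCL14 and FOLR1 lie farthest above the diagonal among the named genes, and the neuronal genes NHLH1 and ELAVL4 lie far below it.

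By the ratio of CPM plus 1, HTR2C and CXCL14 came after TTR. HTR2C, the serotonin 2C receptor that is very abundant in choroid plexus, was at 621 CPM (599 to 643) in the chosen cells and 3.30 CPM (2.82 to 3.83) in the others, a ratio of plain CPM of 188 (161 to 221). CXCL14, a chemokine, was at 751 CPM (727 to 776) and 4.95 CPM (4.36 to 5.59), a ratio of 152. Neither gene was used to choose the cells. The next by CPM plus 1 were FOLR1, given above, TRPM3, a cation channel (410 against 7.99 CPM), SOD3, the secreted superoxide dismutase (69.8 against 0.582 CPM), and CLDN5, a claudin of tight junctions (172 against 3.07 CPM). By plain CPM the ratio of SOD3 was 119.8 and that of TRPM3 51.3, and SOD3, with 30 UMIs in the other cells, reached the minimum only with the chosen cells. CA2, the carbonic anhydrase that supplies bicarbonate and protons for ion transport, was at 310 and 7.26 CPM.

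The remaining genes among the 15 with the largest ratios differed in function. SLC7A8, an amino acid transporter, was at 159 against 3.26 CPM, and SLC13A4, a sulfate transporter, at 59.4 against 1.07 CPM. COL1A2, a chain of type I collagen, was at 121 against 2.13 CPM. IGFBP7, an insulin-like growth factor binding protein, was at 108 against 2.33 CPM, and MMP2, a matrix metalloproteinase, at 64.8 against 1.09 CPM. C11orf88 was at 59.4 against 0.873 CPM and the antisense transcript PGM5P4-AS1, whose counts are uncertain, at 87.2 against 1.34 CPM. Like SOD3, the genes SLC13A4, MMP2, C11orf88 and PGM5P4-AS1 reached the minimum UMI count only with the chosen cells. Their ratios and their places among the largest are therefore descriptions of the chosen cells. CPM counts 3′ ends, so each gene is compared only with itself.

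In the list of secreted proteins and other products of the choroid plexus, 17 of 24 listed genes reached 100 UMIs, and 13 were at least 2-fold higher and none lower (median log2 ratio 2.73). The list also holds TRPM3, CRABP2 and PCP4, which are not secreted. PCP4, a calmodulin regulator, was at 904 CPM (878 to 932) against 39.2 CPM. APOE, a lipid carrier, was at 470 CPM against 24.3, and SERPINF1, the pigment epithelium-derived factor, at 346 against 13.3. CLU, a chaperone of extracellular proteins, was at 593 against 122 CPM, and CST3, a secreted protease inhibitor, at 443 against 121 CPM. PTGDS, the prostaglandin D synthase of cerebrospinal fluid, was at 94.6 against 6.64 CPM and TIMP3, a matrix protease inhibitor, at 153 against 11.3 CPM. The list's members were not all higher: IGFBP2 was at 1671 CPM and 2210 CPM, and VEGFA, the vascular growth factor, at 180 and 178 CPM.

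Of 24 genes for protein folding and the unfolded protein response, all with 100 UMIs, 9 were at least 2-fold higher and none lower (median 0.91). In cells with a TTR share over 5%, 3 of the 24 were higher (median 0.74), beside 1124 of all 12977 genes (median -0.28). In cells with at least 3 of FOLR1, CLIC6, AQP1 and OTX2, 5 were higher (median 0.57), beside 1254 of all 12977 genes (median -0.18). None of the 24 was lower in either. HSPA5, the main chaperone of the endoplasmic reticulum, was at 610 against 257 CPM and DDIT3, a stress transcription factor, at 168 against 44.5 CPM. The 34 nuclear genes of the respiratory chain had no call in either direction (median 0.23), and of 19 glycolysis genes 1 was higher, the glucose transporter SLC2A1 (347 against 154 CPM).

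Transport genes varied in their ratios. Of the water, ion and acid-base list, 25 of 32 genes reached 100 UMIs, 10 were higher and 2 lower (median 0.54). With cells thinned to 1000 UMIs, 9 of them reached 100 UMIs, 1 was higher and none lower (median 0.12). SLC4A5, a sodium bicarbonate cotransporter of the apical membrane, was at 79.3 CPM (71.5 to 87.6) against 2.64 CPM. KCNJ13, a potassium channel, was at 19.7 against 0.330 CPM, CA4 and CA14, membrane-bound carbonic anhydrases, at 26.7 against 0.349 and at 57.1 against 7.22 CPM. Of the proteins that belong to the sodium pump complex, which drives fluid secretion, the regulator FXYD1 was at 71.4 against 9.61 CPM and the beta subunit ATP1B1 at 155 against 109 CPM. SLC12A2, the NKCC1 cotransporter, was at 25.2 and 19.4 CPM.

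Of the nutrient, vitamin, metal and drug transport list, 23 of 35 genes reached 100 UMIs, 15 were higher and 2 lower (median 1.24). Besides FOLR1 and SLC13A4, STRA6, the cell-surface receptor for retinol-binding protein, was at 34.4 CPM (29.3 to 40) against 4.00 CPM. ABCA4, a retinoid flippase known from photoreceptors, was at 25.1 against 0.660 CPM. SLC31A1, a copper importer, was at 49.1 against 21.9 CPM and SLC23A2, a vitamin C transporter, at 21.5 against 8.44 CPM. LRP2, the endocytic receptor megalin, was at 6.62 against 1.90 CPM. In the retinoid and thyroid hormone list, 4 of 11 genes with 100 UMIs were higher and 4 lower: CRABP2, a retinoic acid binding protein, was at 594 against 88.7 CPM and its relative CRABP1 at 95 against 244 CPM. In the metallothionein and metal binding list, 2 of 6 genes with 100 UMIs were higher and none lower (median 0.08). Its most abundant gene FTL, the ferritin light chain, was at 5225 against 2008 CPM.

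Claudins and simple-epithelial keratins were among the genes with a high ratio. Of 29 listed genes 21 reached 100 UMIs, 8 were higher and none lower (median 0.26). CLDN5 was joined by CLDN3, another claudin (75.8 CPM, 68.2 to 83.9, against 2.70 CPM), and by KRT8 (151 against 7.18 CPM) and KRT18 (226 against 13.7 CPM), the paired keratins of simple epithelia. DSP, the desmosomal plaque protein, was at 13.2 against 0.815 CPM and OCLN, occludin, at 14.5 against 4.83 CPM. TJP1, the ZO-1 scaffold, was at 31.7 and 30.3 CPM and CDH2, N-cadherin, at 220 and 194.3 CPM. VIM, the intermediate filament of neuroepithelium, was at 1503 CPM (1468 to 1538) against 4075 CPM.

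Of 45 listed multiciliated and axonemal genes, 33 reached 100 UMIs, 27 were higher and 1, the tubulin TUBA1A, was lower (median 2.75). Of the 33, 6 reached the minimum only with the UMIs of the chosen cells, and 21 of the other 27 were higher. FOXJ1, the transcription factor that switches on motile cilia, was at 53.8 CPM (47.5 to 60.8) against 3.24 CPM. CFAP126, which positions basal bodies, was at 103 against 3.40 CPM, PIFO, a protein of the ciliary base, at 181 against 8.79 CPM, FAM81B at 111 against 3.26 CPM and SPAG6, of the central pair of the axoneme, at 54.2 against 1.34 CPM. TEKT1, a filament protein of axonemal microtubules, was at 18.4 against 0.330 CPM. These genes were unevenly spread among the cells: without 1 cluster of 50 cells described below, 18 of 28 were higher and the median was 1.20. With the same 294 and 4324 cells thinned to 1000 UMIs, which lowers all counts, 8 genes reached 100 UMIs and 3 of them were higher.

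RFX factors bind cilium gene promoters, and the promoters of these genes were read for the short RFX half-site GTTGCCA (reverse complement TGGCAAC, both strands searched), from 250 bases before to 50 after the start in RefSeq (GRCh38.p14). It was present in 10 of the 36 listed cilium genes with a promoter there (27.8%), in 4.13% of all 27305 promoters, in 3.71% of 9938 promoters of genes with 100 UMIs and in 4.60% of 870 promoters of genes at least 2-fold higher. The OTX2 core TAATCC (reverse complement GGATTA) was present in 6.39% of all promoters, in 4.03% of those of genes with 100 UMIs and in 4.25% of those at least 2-fold higher. For the cilium genes the motif count started from 46 listed genes, where the list count above used 45. A match is a run of letters and was not tested for binding. The last 100 bases before the start are shown for 3 cilium genes that were higher and hold the match there, with the half-site in capitals, since they let the shared letters be seen (CFAP53, at 14.1 against 2.12 CPM, also holds it there and is not shown), at chr1:161367877-161367976, chr1:159900166-159900265 and chr17:6831730-6831829, all on the minus strand:
CFAP126: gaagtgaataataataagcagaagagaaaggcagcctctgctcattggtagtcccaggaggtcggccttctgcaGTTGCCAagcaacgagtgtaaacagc
CFAP45: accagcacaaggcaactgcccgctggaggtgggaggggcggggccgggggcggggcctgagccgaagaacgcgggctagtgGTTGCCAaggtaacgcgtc
TEKT1: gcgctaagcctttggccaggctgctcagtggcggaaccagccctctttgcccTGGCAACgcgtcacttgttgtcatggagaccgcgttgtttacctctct
CFAP45, which lies within axonemal doublets, was at 16.6 CPM (13.1 to 20.6) in the chosen cells and 0.504 CPM in the others. The match begins 26 bases before the start site in CFAP126, 19 bases before it in CFAP45 and 48 bases before it, on the opposite strand, in TEKT1.

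**Figure D3:**
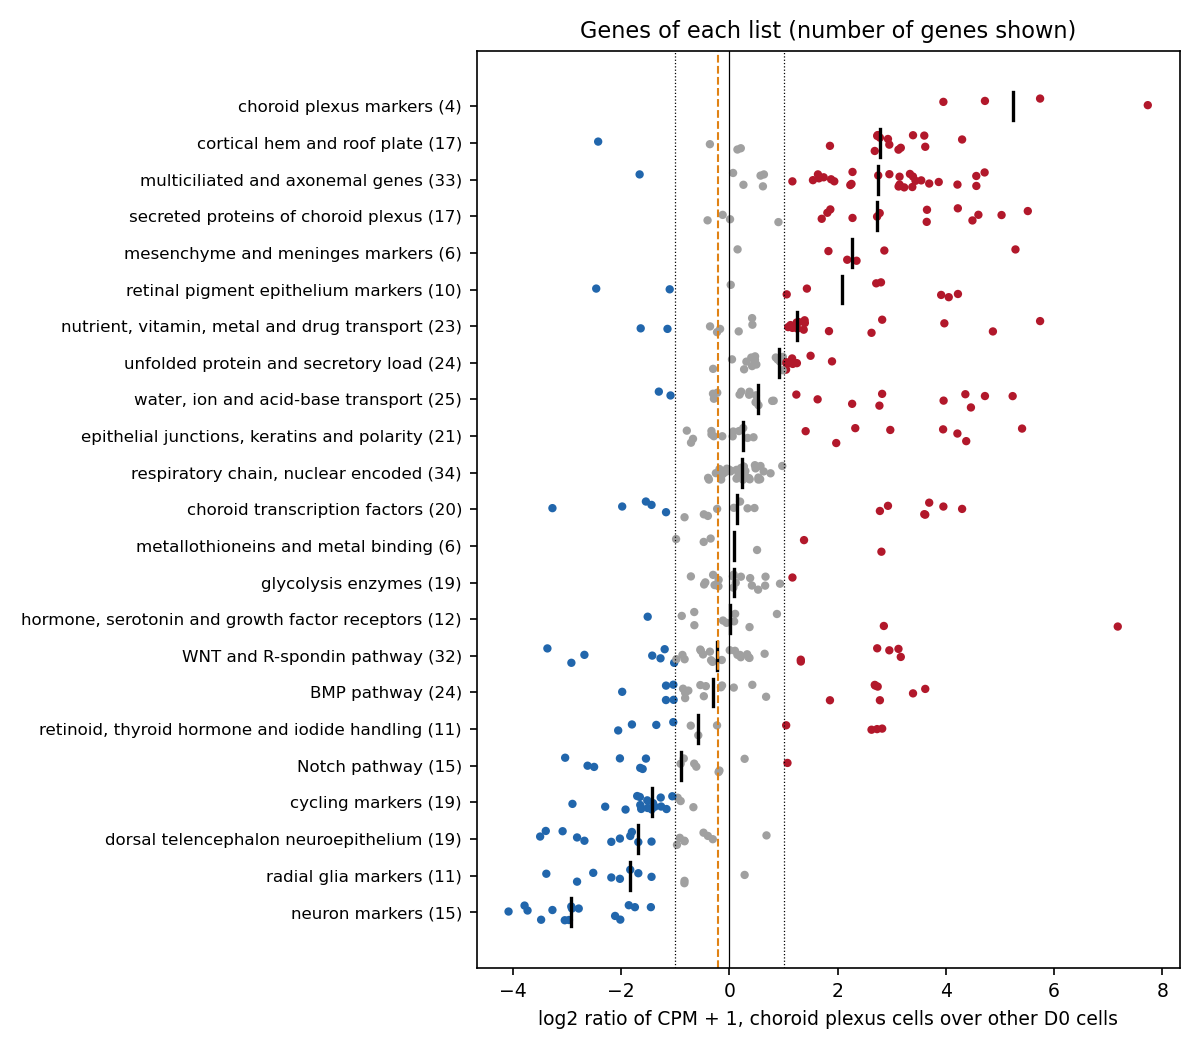
Log2 ratio (CPM + 1, choroid plexus cells over other D0 cells) of each gene with at least 100 UMIs, by list, for lists with at least 4 such genes, with red and blue points at least 2-fold higher or lower, black bars at list medians and a dashed orange line at the median of all 12977 genes (-0.21). Choroid plexus, hem, cilium, secreted protein, retinal pigment epithelium and mesenchyme lists lie to the right, and neuron, radial glia and cycling lists to the left.

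Signals and factors of the dorsal midline were mostly higher. Of 20 listed cortical hem and roof plate genes, 17 reached 100 UMIs, 13 were higher and 1, LHX9, was lower (median 2.78). With cells thinned to 1000 UMIs, 4 of them reached 100 UMIs, 2 were higher and the median was 1.20, and with a pseudocount of 10 CPM the median was 1.68. The log2 ratio of LHX9 was -2.42, but 0.46 when cells were chosen by at least 3 of FOLR1, CLIC6, AQP1 and OTX2. MSX1, a BMP-induced homeobox factor, was at 132 CPM (122 to 142) against 9.80 CPM. ZIC1 and ZIC4, zinc finger factors of the dorsal midline, were at 71.6 against 4.99 and at 52 against 1.69 CPM. LMX1A, the roof plate determinant, was at 33.5 CPM (28.6 to 39.1) against 3.53 CPM. Of the 20 choroid plexus transcription factors with 100 UMIs, which include these, 7 were higher and 5 lower (median 0.14), with MEIS2, a homeobox factor, at 15.3 against 156 CPM. RSPO2, which amplifies WNT signals, was at 225 CPM (211 to 238) against 33 CPM, WNT3A, a hem ligand, at 14.5 against 0.776 CPM, and WNT5A, a non-canonical ligand, at 33.5 against 3.45 CPM.

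Within the pathways the ligands and the targets did not move as a block. Of 29 BMP genes 24 reached 100 UMIs, 7 were higher and 5 lower (median -0.30). The ligands BMP7 (164 against 44.6 CPM), BMP2 (48.4 against 6.64 CPM) and GDF7 (13.4 against 1.16 CPM) and the pseudoreceptor BAMBI (126 against 11.1 CPM) were higher. The target ID1 was at 218 and 206 CPM, while ID4 was lower (148 against 586 CPM), as was the receptor BMPR1A (11.2 against 24 CPM). Of 46 WNT genes 32 reached 100 UMIs, 6 were higher and 7 lower (median -0.23): the secreted inhibitor SFRP1 was at 69.1 against 448 CPM, the effector LEF1 at 3.73 against 47.6 CPM and the ligand WNT7A at 1.86 against 20.7 CPM. The target AXIN2 was at 17.4 and 10.7 CPM. In the Notch list 7 of 15 genes were lower and 1, NOTCH2, was higher (median -0.90), with the target HES5 at 98.1 against 402 CPM. Of 12 receptor genes with 100 UMIs, HTR2C and FGFR2, a fibroblast growth factor receptor (148 against 19.6 CPM), were higher and FGFR3, another of that family, was lower (30.2 against 87.9 CPM), with a median of 0.02, beside 9.39% higher and 13.9% lower over all genes.

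Genes of the surrounding forebrain tissue were low. Of 19 dorsal telencephalon genes, 11 were at least 2-fold lower and none higher (median -1.68). EMX1, a cortical factor, was at 12.2 against 148 CPM, LHX2, the selector that separates cortex from hem, at 47.2 against 407 CPM, and PAX6, of cortical progenitors, at 68.7 against 247 CPM. EMX2 was at 140 and 185 CPM and SOX2, of neural progenitors in general, at 223 and 397 CPM, both within 2-fold. All 15 neuron markers were at least 2-fold lower (median -2.92), among them STMN2 (80.3 CPM, 72.5 to 88.7, against 783 CPM) and NEUROD6 (20.9 against 301 CPM). NHLH1, a factor of newborn neurons, had the lowest ratio of the named genes (2.28 against 88.2 CPM). Of the 11 radial glia genes 8 were lower and none higher, and of the 19 cycling genes 16 were lower and none higher, with MKI67 at 27.7 against 92.6 CPM and TOP2A at 101 against 265 CPM.

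Markers of other cell types that express TTR or lie near the epithelium were counted. Hepatic and yolk sac endoderm markers were all but absent: 14 of 17 had no UMI in the chosen cells, and the list summed to 3.52 CPM, most of it APOA1 at 3.105 CPM. Of 13 markers of non-neural epithelium and neural crest, 6 had no UMI and none of the 2 genes with 100 UMIs was higher. Retinal pigment epithelium markers summed to 253 CPM in the chosen cells and 36.3 CPM in the others, with 7 of 10 genes higher and 2 lower (median 2.07) and with PMEL, of pigment granules, the most abundant (67.9 against 8.89 CPM). MITF, the pigment cell factor, was at 65.2 against 2.99 CPM and RPE65, the retinoid isomerase, at 29 against 0.990 CPM, while 2 of the 15 listed genes had no UMI in the chosen cells and LRAT was lower (0.828 against 9.06 CPM). Of 15 mesenchymal markers 6 reached 100 UMIs, 5 were higher and none lower (median 2.26), and the list summed to 283 and 25.2 CPM, with COL1A2 the most abundant, PDGFRB, a pericyte and mesenchyme receptor, at 73.9 against 9.29 CPM, and DCN, LUM and COL3A1 at 13.9, 3.105 and 7.04 CPM. In the endothelial and blood list, 6 of 14 genes had no UMI and AIF1 was at 51.1 against 9.99 CPM. The part that retinal pigment epithelium or mesenchyme cells had in these levels was not tested.

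The chosen cells were next split into 3 groups of 103 by their TTR share, low (1.01% to 3.50%), middle (3.54% to 7.34%) and high (7.35% to 29.1%). The median depth of the groups was 5767, 12790 and 17861 UMIs, and their median mitochondrial share was 3.05%, 3.28% and 5.20%. Both thus moved with the TTR share, and their part was not tested. FOLR1, HTR2C, AQP1, CLDN5 and SERPINF1 were at a higher level where the TTR share was higher. FOLR1 was at 36.5 CPM (27.0 to 48.3), 76.3 CPM (62.8 to 91.8) and 135 CPM (119 to 152). HTR2C was at 173, 622 and 917 CPM, and AQP1 at 8.21, 23.9 and 92.9 CPM, so that most AQP1 UMIs lay in the high group. CLDN5 was at 54.5, 202 and 227 CPM and SERPINF1 at 212, 322 and 453 CPM. CLDN3 was at 54.5, 72.2 and 92.4 CPM and OCLN at 5.97, 11.6 and 22.3 CPM, while CDH2 was at 279.7, 212 and 186 CPM and EZR, ezrin, at 82.8, 45.7 and 50.9 CPM.

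OTX2 differed little between these groups. It was at 139 CPM (120 to 160), 149 CPM (130 to 170) and 155 CPM (138 to 173), with overlapping intervals, and LMX1A was at 41, 30.7 and 30.7 CPM. SOX2, VIM, PAX6 and MKI67 were lower where the TTR share was higher: SOX2 was at 321, 204 and 172 CPM, VIM at 2468, 1311 and 1002 CPM, PAX6 at 108, 76.3 and 37.1 CPM and MKI67, most of whose UMIs lay in the 12 cells of cluster 5 described below, at 70.1, 22.5 and 3.46 CPM. The cycling gene TYMS was at 53.7, 101 and 48.9 CPM and the progenitor gene HES1 at 292, 277 and 306 CPM. RSPO2 was at 284, 214 and 193 CPM. The neuronal STMN2 was at 110, 119 and 32.6 CPM.

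**Figure D4:**
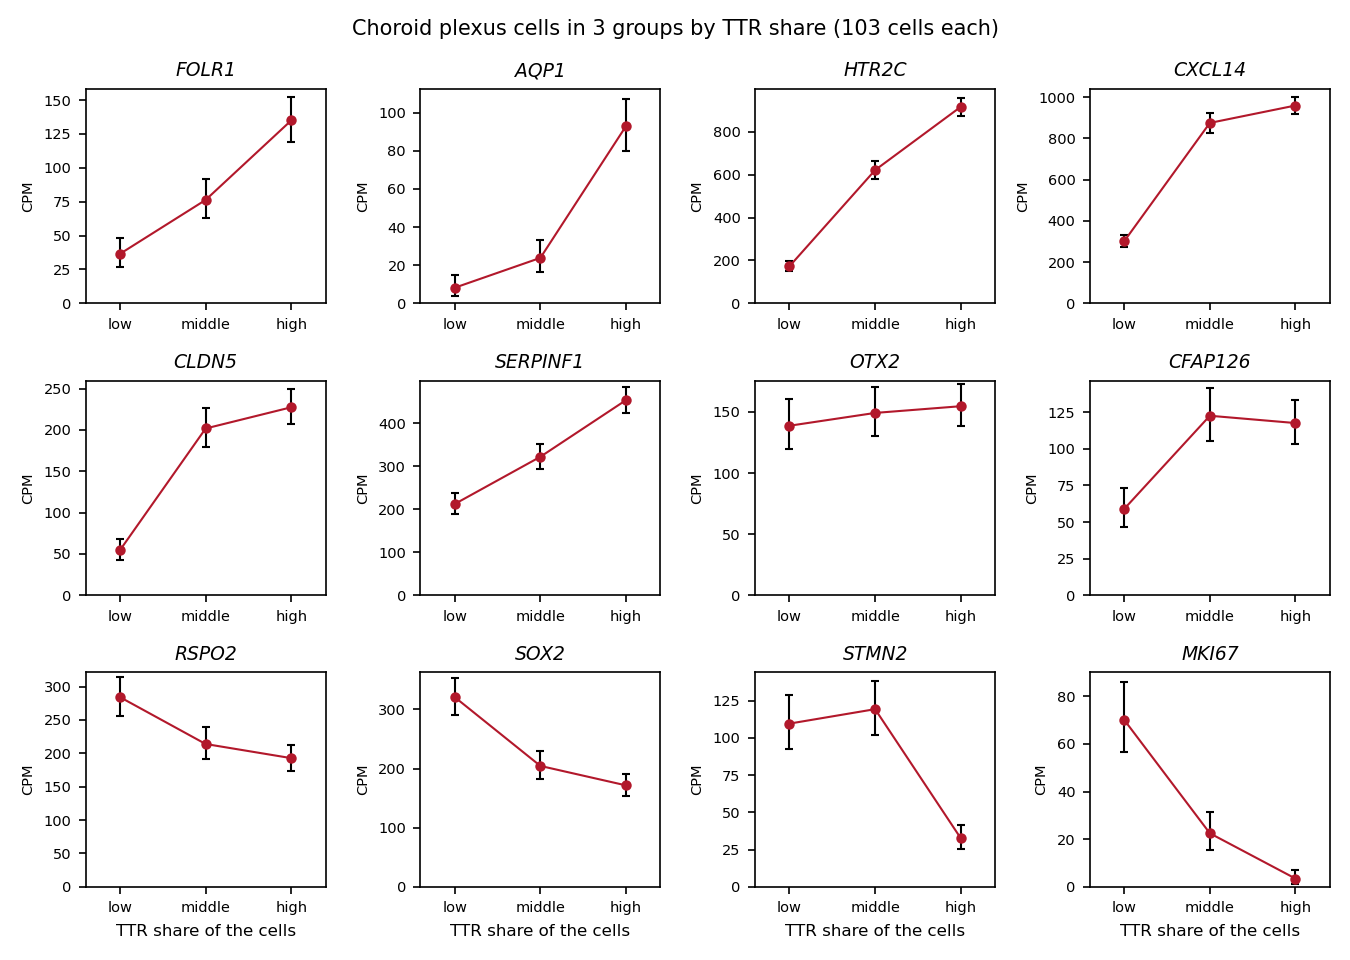
Level in CPM of 12 genes (vertical, linear from 0) in the low, middle and high groups of choroid plexus cells by TTR share, 103 cells each, as summed UMIs (points) with exact Poisson 95% intervals (bars). FOLR1, AQP1 and HTR2C are higher at each step to the right, OTX2 stays between 139 and 155 CPM, and SOX2 and MKI67 are lowest in the high group.

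Clustering of the 309 cells without TTR and mitochondrial genes gave 6 clusters, numbered 0 to 5 and described by their leading genes. These genes define the clusters and were not tested. Cluster 0 (85 cells, median 4824 UMIs) was led by AC010319.3, HSPA1B, DDIT4 and HIST2H2BE. DDIT4, a gene of hypoxia, was at 2345 CPM against 309 in the other chosen cells. HILPDA, also of hypoxia, was at 533 against 119 CPM and the heat shock gene HSPA1B at 574 against 70 CPM. SLC2A1, the glucose transporter, was at 858 CPM (789 to 930) in it and at 84.2 CPM (69.8 to 101) in cluster 2. AQP1 reached 126 CPM (101 to 156) in it, with 79.6 CPM in cluster 4 and 15.4 CPM in cluster 1, whereas CXCL14 was at only 32.3 CPM (20.2 to 48.9).

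Cluster 1 (69 cells, median 17939 UMIs) was led by MASP1, a complement-associated protease, the neuropeptide CCK, HES5 and RSPO3. RSPO2 was at 368 CPM (334 to 405) and MSX1 at 220 CPM (193.6 to 248) in it, with MSX1 at 181 CPM (107 to 286) in cluster 3. STMN2, at 170 CPM (147 to 195), was also above its level in clusters 0, 2 and 4. The cluster was the least stable, since at a finer resolution, which gave 8 clusters, its largest piece held 35 of its cells.

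Cluster 2 (50 cells, median 25147 UMIs) was led by CCNO, a driver of centriole amplification in multiciliated cells, which was at 174 CPM (153 to 197) and below 5 CPM in clusters 0, 1, 4 and 5. FOXJ1 was at 97.6 CPM (82 to 115), CFAP126 at 207 CPM (184 to 232), TEKT1 at 54.8 CPM (43.3 to 68.3) and C11orf88 at 185 CPM in it. The same cells had the most HTR2C (993 CPM, 942 to 1046) and CXCL14 (1793 CPM, 1724 to 1864), CLIC6 at 39.3 CPM (29.7 to 51), and COL1A2 at 286 CPM (259 to 316) against 16.2 CPM in cluster 1. HTR2C, CXCL14, COL1A2 and the named cilium genes were thus high in the summed UMIs of the same cluster. Whether single cells carried them together was not tested. The mesenchyme markers summed to 502 CPM in cluster 2 and to 70.4 to 277 CPM in the other clusters, and the part of mesenchyme cells was not tested. Cluster 2 held 16.2% of the chosen cells but 29.5% of their UMIs, and its median mitochondrial share was 8.80%, against 3.78% over all 309 cells.

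Cluster 4 (54 cells, median 20702 UMIs) was led by CYTOR, TRIB3, ATF5 and GDF15, with TRIB3 at 214 against 24 CPM and GDF15 at 319 against 47 CPM in the other chosen cells, DDIT3 at 359 CPM (325 to 396) and HMOX1, the heme oxygenase, at 56.6 CPM (43.6 to 72.3) where clusters 0, 1 and 2 had at most 3.51 CPM. The pigment cell genes GPNMB at 153 CPM (131 to 178) and PMEL at 164 CPM (142 to 190) were highest in it, and its summed retinal pigment epithelium markers were at 430 CPM against 77 to 263 CPM in the other clusters, while RPE65 was highest in cluster 2 (65.3 CPM, 52.7 to 80). At the finer resolution 38 of the 54 cells of cluster 4 stayed together. Cluster 5 held 12 cells led by cell cycle genes, with MKI67 at 388 CPM (323 to 462), TOP2A at 1257 CPM (1138 to 1385) and UBE2C at 1827 CPM. In these cells OTX2 was at 179 CPM (136 to 231), FOLR1 at 21.6 CPM (8.67 to 44.4), HTR2C at 129 CPM (93.3 to 175) and VIM at 4184 CPM. Radial glia markers summed to 5673 CPM in them, 1847 to 2638 CPM in the other clusters and 6291 CPM in the other D0 cells. Dorsal telencephalon genes summed to 6739, 2281 to 3633 and 8320 CPM, so the low forebrain genes described above did not extend to cluster 5. Outside cluster 5, MKI67 was at 4.21 CPM or less in every cluster. Cluster 3 (39 cells) had a median of 1363 UMIs, far under the 9841.5 of D0, and was left unnamed.

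**Figure D5:**
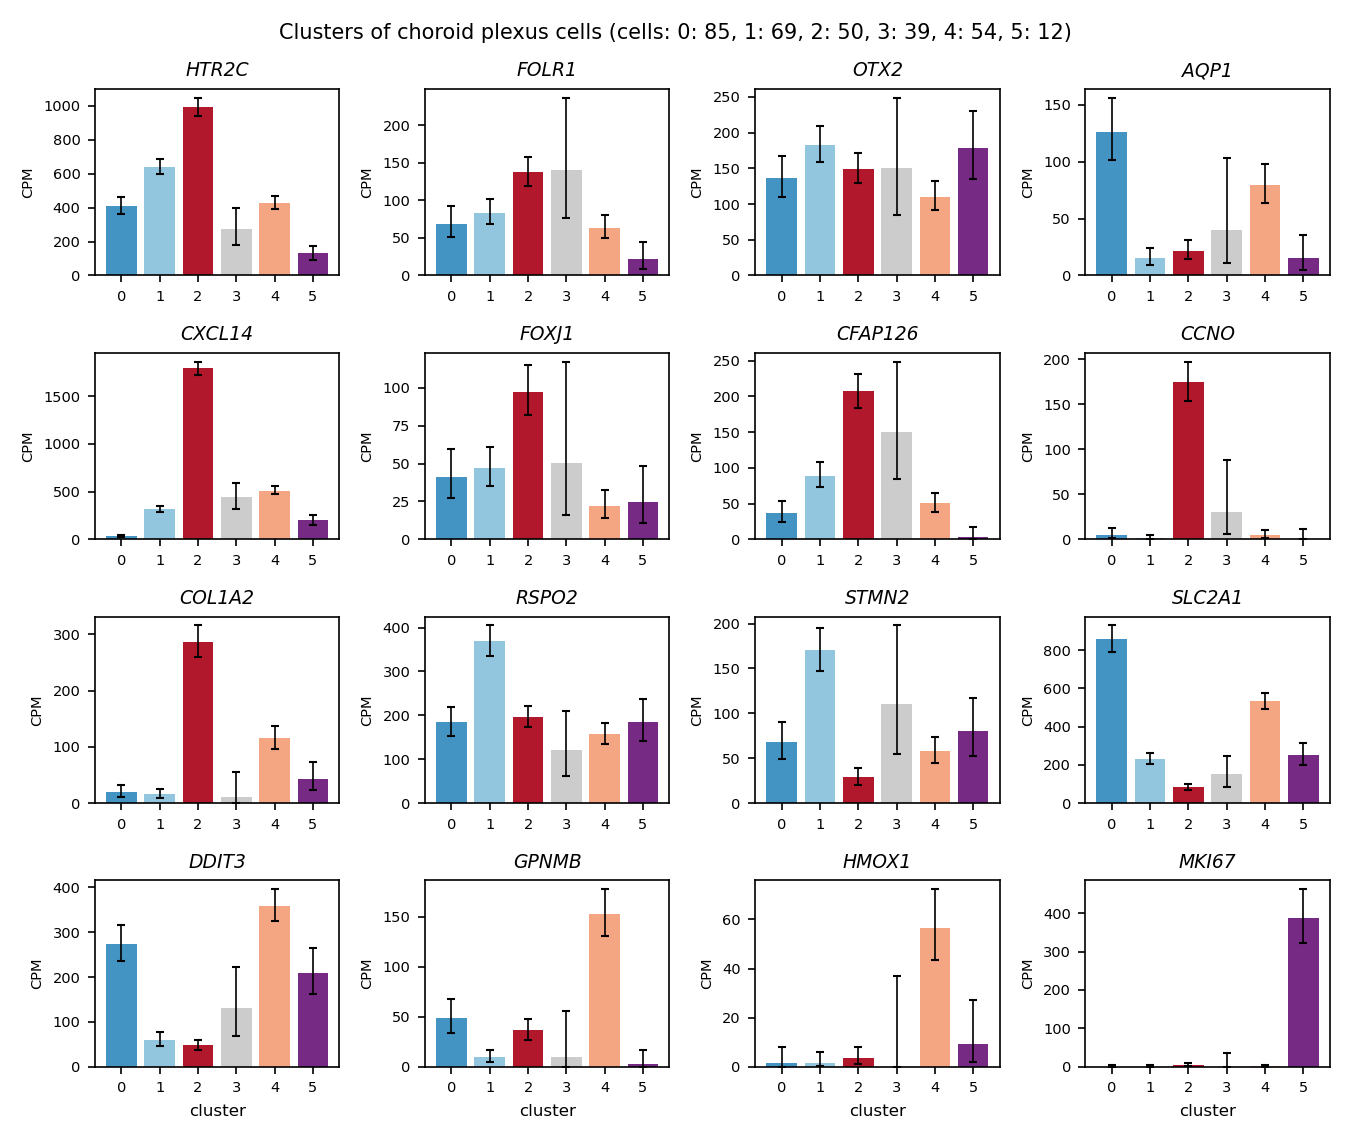
Level in CPM (vertical, linear from 0, scaled per gene) of 16 genes in the 6 clusters of choroid plexus cells (horizontal), as summed UMIs with exact Poisson 95% intervals. CCNO, CXCL14 and COL1A2 are highest in cluster 2, AQP1 and SLC2A1 in cluster 0, RSPO2 and STMN2 in cluster 1, HMOX1 and GPNMB in cluster 4 and MKI67 in cluster 5, while OTX2 is present in all 6.

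The same rule found no cell in the grafts. None of 8277 human cells of HIP_2MPT, 6913 of HIP_4MPT, 5952 of PFC_2MPT and 8363 of PFC_4MPT had more than 1% of UMIs from TTR, which allows shares of up to 0.0362%, 0.0434%, 0.0504% and 0.0359%. The highest TTR share of any graft cell was 0.154%, 0.0696%, 0.134% and 0.0811%, in the same order. Over all human cells TTR was at 6064 CPM in D0 and at 3.22, 0.466, 5.55 and 0.830 CPM in the grafts, and HTR2C at 56.2 CPM in D0 and at most 0.559 CPM in a graft. FOLR1 was at 2.66 CPM (57 UMIs) and AQP1 at 1.12 CPM (24 UMIs) in HIP_4MPT, where TTR had 10 UMIs. The median depth was 9841.5 UMIs in D0 and 1253, 2759, 2359 and 1840 UMIs in HIP_2MPT, HIP_4MPT, PFC_2MPT and PFC_4MPT. Time, the host brain, the dissociation enzyme, the Cell Ranger release and the depth all differed between D0 and the grafts and cannot be told apart. Small organoids were taken for grafting, and whether the D0 organoids differed from them was not tested.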

How the data were processed

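The authors counted UMIs per gene and barcode with Cell Ranger (3.1.0 for D0 and 5.0.0 for grafts, per the file headers) against GRCh38 and deposited these counts without normalization. Whether intronic reads were counted is not given in the sources used here. Graft barcodes counted as human had over 0.8 of their UMIs from human genes in the human-mouse reference. D0 shared 13 cell barcodes with HIP_2MPT and 6 with each other graft library.

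UMIs of the chosen cells and of the other D0 cells were summed and scaled to CPM, with Python 3.11.15, numpy 2.4.6 and scipy 1.17.1. Genes with at least 100 UMIs over both groups were compared as log2 of CPM plus 1, and at least 2-fold counted as higher or lower. The procedure was run on simulated Poisson counts, with larger planted changes, only in genes with many UMIs and without variation between cells. That run therefore does not bear on calls near 2-fold or near 100 UMIs. No count model was used, since D0 is 1 library. Levels have exact Poisson and shares exact Clopper-Pearson 95% intervals, and a count of 0 was taken to allow 3. A transcript counted once carries 1 UMI, so depth is the number of UMIs. Strand and overlap handling in counting are not given in the sources used here, so antisense genes are uncertain.

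Named genes were the 5 markers, the 15 per direction with the largest ratio at 50 CPM in either group, from each list up to 6 with the most UMIs and those 2-fold different, and MKI67, TOP2A, PAX6, SOX2, STMN2 and LMX1A. Some genes that this rule names are not reported here. Other genes were named after their values were seen, as were both motifs. The members and lists were chosen with earlier results of these data known. Symbols with more than 1 identifier (IGF2, CCDC39) were left out of list counts. Clusters used scanpy 1.11.5 (2000 variable genes, 20 principal components, 15 neighbours, resolution 0.5). Scrublet's automatic threshold marked 0 cells and thus did not work, so doublets were kept, and the 6% of cells with the highest scores were left out as an alternative.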

Additional observations from a re-analysis of the deposited data

Results flagged for a closer look

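Among the 775 D0 barcodes that failed the filters, 83 had over 1% of their UMIs from TTR and were outside every comparison. Of these, 71 had 500 genes or fewer, 20 had at least 15% of UMIs from mitochondrial genes and 8 had both. In the 20 barcodes with a high mitochondrial share, HTR2C was at 1225 CPM, FOLR1 at 342 CPM (53 UMIs), OTX2 at 142 CPM and KRT18 at 284 CPM.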

How the results depend on the processing

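Choroid plexus cells made up 8.29% of D0 cells with a TTR share over 0.5%, 5.29% over 2%, 3.31% over 5%, and 1.10% when they were found by at least 3 of FOLR1, CLIC6, AQP1 and OTX2. With a pseudocount of 10 CPM, 617 genes were at least 2-fold higher and 605 lower. Without a filter on low counts 1924 genes were higher. With 294 chosen and 4324 other cells thinned to 1000 UMIs, 324 of 5992 genes tested were higher and 1209 lower. Thinning left out cells, lowered counts and gave each cell the same weight at once, and the part of each was not tested. Higher genes were 50.5%, 50.6% and 21.1% of calls under these settings. Weighting each cell equally gave 1165 higher and 2369 lower genes, and leaving out cluster 2 gave 979 and 1960. Both were chosen after seeing the data. Of the 1219 higher genes, 1006 and 918 remained under them. Of 412 list medians under the 16 alternatives, 17 crossed a 2-fold limit and none past it changed sign, and the retinal pigment epithelium, hepatic, mesenchyme and endothelial lists had no value with thinned cells. The cilium median (2.75) fell to 0.65 with thinned cells, that of the hem genes (2.78) to 1.20, that of the choroid transcription factors (0.14) to -0.40 and that of the junction genes (0.26) to -0.12. Without a filter the endothelial and blood median (2.25) was 0.15 and the retinal pigment epithelium median (2.07) 0.85. The nutrient transport median (1.24) was 0.67 with a pseudocount of 10, and the retinoid median (-0.57) was 0.28 by the 4-marker rule. For the 391 listed or named genes with 100 UMIs, 1627 of 6256 values left the counting interval and 11 changed sign. By the 4-marker rule the log2 ratio of WNT4 (-1.02) was 1.32, that of LHX9 (-2.42) 0.46 and that of DCT (-1.10) 2.53. With thinned cells SLC40A1 (1.39) was at -1.11, CLDN1 (2.33) at -1.26, WNT4 at 0.63, OCA2 (1.43) at -1.51 and RDH10 (1.05) at -0.11. WNT4 was at 0.047 with cells weighted equally, and without cluster 2 CCNO (3.13) was at -0.47 and TYRP1 (1.06) at -0.00226. The cause was not tested. With 1 library per condition, no replicate could be left out, and depth limits CLIC6 (83 UMIs) and the sparse shares of cells with a marker. No cell of the grafts passed at a TTR share over 0.5% or at a human share over 0.9. At a clustering resolution of 1, 75 of 85 cells of cluster 0, 35 of 69 of cluster 1, 48 of 50 of cluster 2, 37 of 39 of cluster 3, 38 of 54 of cluster 4 and all 12 of cluster 5 stayed together.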

Other observations

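OTX2 was also present outside the chosen cells, with 446 UMIs in 5.71% of the other D0 cells and at 3.93 CPM in the neurons. The cells just under the threshold held HTR2C in 5 of 25 cells. Without thinning, LMX1A was seen in 32.7% of the chosen cells and 3.09% of the others, and SOX2 in 68.0% and 58.2%.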
